A study of Mus musculus with 8 samples.

Results

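The genes studied are 10 mouse genes for fat storage and adipokines: Plin1, Cidec, Pnpla2, Lipe, Lpl, Cd36, Fabp4, Adipoq, Lep and Retn. They were listed by name, with earlier results of these data already known, and all 10 were found among the 22367 protein-coding genes of the mm9 annotation used here. For each gene the body, the start site and the distance to the closest lamina associated domain (LAD) were read from 4 deposited lists of LADs. A LAD is a stretch of chromosome that lies at the nuclear periphery in the cells studied.

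The lists came from LaminB1-DamID in 3T3-L1 cells, an established mouse line of preadipocytes that turns into fat cells in culture. In DamID a bacterial adenine methylase, Dam, is fused to a protein of interest and methylates the sequence GATC in nearby DNA, while Dam alone serves as the control. A lentivirus brought Dam or LaminB1-Dam into the cells, and each of the 4 conditions had 1 library of each kind, 8 libraries in all. Tmem120a and its paralog Tmem120b are proteins of the nuclear envelope, and the design allows LAD positions to be compared before and after differentiation and with Tmem120a alone or both proteins depleted. The preadipocytes were undifferentiated, untreated cells labelled day 0. The other conditions were labelled day 9 after induction with insulin, dexamethasone, IBMX and rosiglitazone, followed by insulin and rosiglitazone alone, with the virus added during differentiation. These were control adipocytes, adipocytes of stable lines with an shRNA against Tmem120a (the single knockdown), and adipocytes with shRNAs against both Tmem120a and Tmem120b (the double knockdown). The control adipocytes were labelled as carrying a non-target shRNA, while the paper names an empty shRNA vector as the control for the Tmem120a knockdown. The preadipocytes differed from the control adipocytes in stage and in the absence of an shRNA construct, and these cannot be told apart. The sources used here differ on how long the cells were exposed to Dam, so a difference in that time between the stages cannot be told apart from them either. No condition was measured more than once, so no value here has a spread between replicates, no difference could be tested, and each one is a difference between lists. The lists hold positions only, so the depth is unknown and neither the cell type nor the knockdowns can be checked from them.

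Fat cells keep triglyceride in lipid droplets whose surface is coated by perilipin and whose size depends on CIDE proteins. Fatty acids reach the cell through lipoprotein lipase at the vessel wall, CD36 at the cell membrane and fatty acid binding protein inside, and they leave it again through adipose triglyceride lipase and hormone-sensitive lipase. The cells also secrete hormones, the adipokines, which tell other tissues about the state of the fat store. Genes of this kind are switched on during adipogenesis, and DNA in LADs is in general poor in active genes.

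Dam acts only at GATC, so the measurements change from one such site to the next, and nearly all LAD borders in the lists fell at one. The sequences below are shown because they are the measured edges of the LADs nearest to Cd36, the one member whose state differed between lists, and to Adipoq, whose distance differed most. Each holds 20 bases on either side of the border site, with GATC in capitals. All are from the mm9 reference. At Cd36 the first 2 lines are both borders of the preadipocyte LAD that held the gene, and the others are the border closest to the gene in the other lists.
Cd36 preadipocyte LAD, start, chr5:17283587-17283630, strand +: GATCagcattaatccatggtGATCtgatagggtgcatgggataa
Cd36 preadipocyte LAD, end, chr5:17512313-17512356, strand +: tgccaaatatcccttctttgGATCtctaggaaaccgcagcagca
Cd36 adipocyte, chr5:17568538-17568581, strand +: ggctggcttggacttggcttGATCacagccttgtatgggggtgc
Cd36 Tmem120a knockdown, chr5:17569648-17569691, strand +: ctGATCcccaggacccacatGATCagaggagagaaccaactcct
Cd36 Tmem120a/b knockdown, chr5:17403166-17403209, strand +: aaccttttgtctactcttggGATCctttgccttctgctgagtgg
Adipoq preadipocyte, chr16:22738890-22738933, strand +: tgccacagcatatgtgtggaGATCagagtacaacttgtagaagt
Adipoq adipocyte, chr16:21107733-21107776, strand +: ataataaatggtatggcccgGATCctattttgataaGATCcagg
Adipoq Tmem120a knockdown, chr16:22978459-22978502, strand +: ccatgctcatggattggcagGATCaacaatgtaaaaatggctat
Adipoq Tmem120a/b knockdown, chr16:23052926-23052969, strand +: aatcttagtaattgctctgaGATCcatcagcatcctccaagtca

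GATC reads the same on both strands. In the 250 bases before the start site it was present in 4 of the 10 genes and in 40.2% of all protein-coding genes. For the other members no site within that window could be methylated, so the window itself was read from sites outside it. The gene bodies held sites of their own, from 4 in Fabp4 to 255 in Cd36.

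The 10 genes lay outside LADs almost throughout. In preadipocytes 1 gene body, that of Cd36, met a LAD, against 26.2% of all protein-coding genes. In adipocytes none did, against 23.3%, in the single knockdown none, against 27.5%, and in the double knockdown none, against 29.5%. By the start site the count was again 1 in preadipocytes, against 23.3%, and 0 in the other lists, against 21.2%, 22.6% and 23.8%. In a wider window, from 10 kb before to 15 kb after the start site, Cd36 also met a LAD in the double knockdown, so that the counts were 1, 0, 0 and 1 in the order of the lists, against 25.9%, 22.8%, 26.1% and 28.1%. The other 9 genes were outside LADs in all lists, as were 63.7% of protein-coding genes, and what varied among them was how far away the closest LAD lay. Distances here run along the chromosome and say nothing of the distance to the envelope in space.

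**Figure D1:**
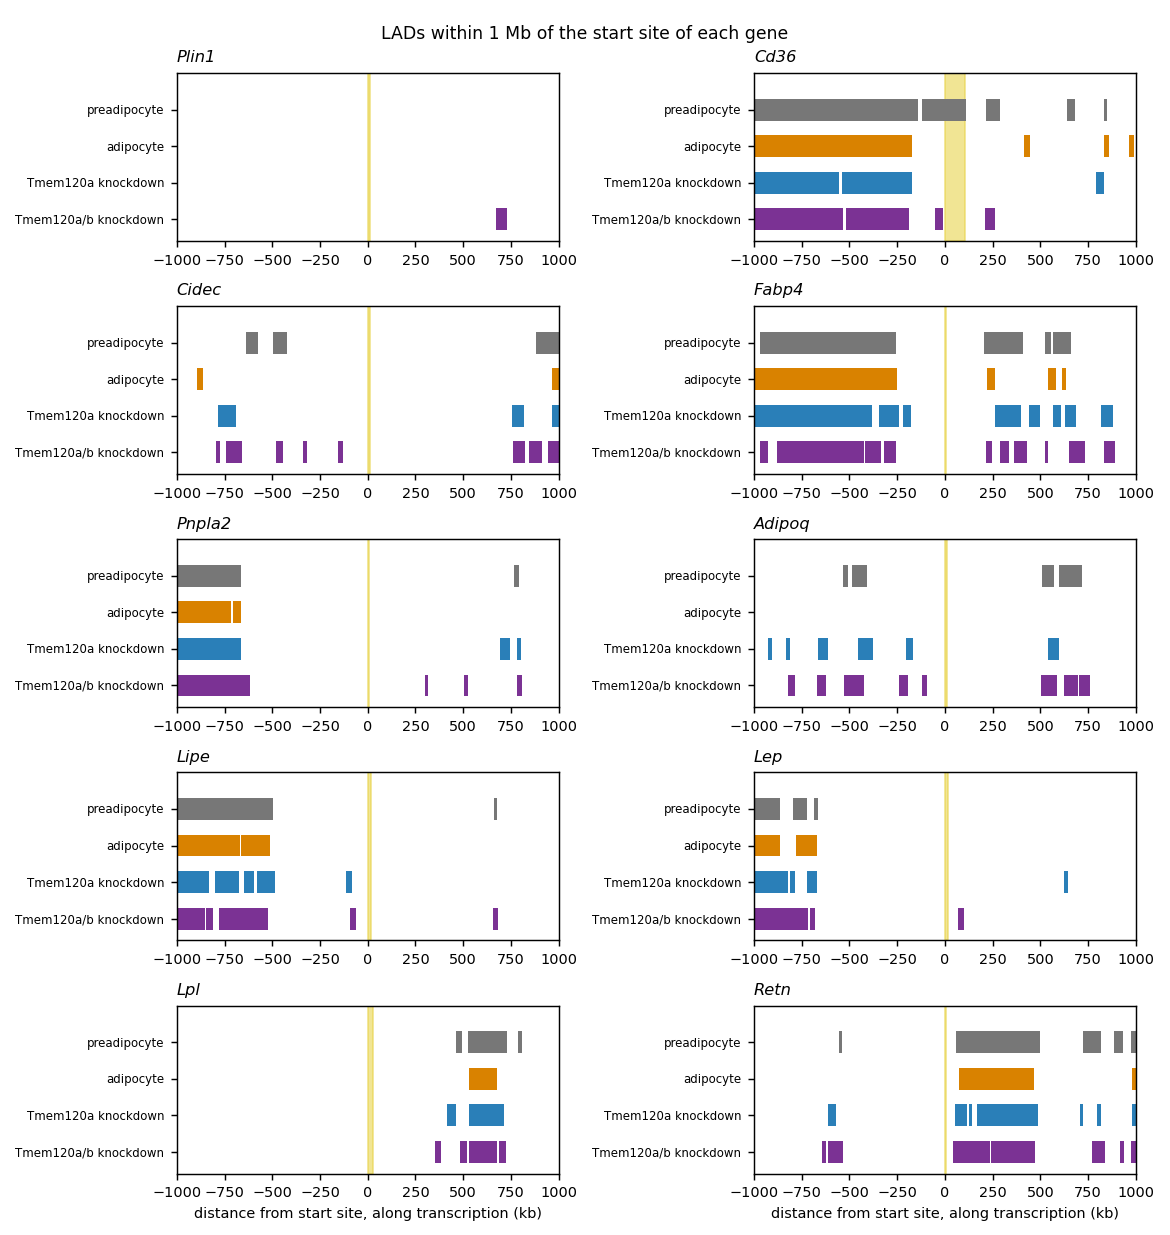
LADs around each of the 10 genes in the 4 lists, as distance in kb from the start site along the direction of transcription; coloured bars are LADs, 1 row per list, and the yellow band is the gene. The band meets a bar only at Cd36 in preadipocytes, and at Adipoq the adipocyte row is empty over the whole 2 Mb shown.

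Plin1 and Cidec encode proteins of the droplet surface. Plin1 (perilipin 1, ENSMUSG00000030546.7, chr7:86866050-86877662, strand -) was the most remote member in 3 of the 4 lists and the exception was the adipocyte list, in which Adipoq was more remote. Its closest LAD was 1187 kb away in preadipocytes, 1165 kb in control adipocytes, 1152 kb in the single knockdown and 660.4 kb in the double knockdown, each time beyond the 3′ end. The border facing Plin1 moved by 21.6 kb between the first 2 lists and by 13.6 kb between the second and the third, and the double knockdown LAD was a separate one of 55.1 kb that no other list held. Without LADs under 100 kb, Plin1 was 1270 kb, 1165 kb, 1275 kb and 1192 kb away, so that both knockdowns were then farther than adipocytes. No list had a LAD within 500 kb of the start site of Plin1.

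Cidec (CIDEC, which helps droplets grow by exchange of lipid, ENSMUSG00000030278.5, chr6:113374628-113385754, strand -) lay at a different distance in each list. Its closest LAD, upstream in each list, was 423 kb away in preadipocytes, 861 kb in control adipocytes, 691 kb in the single knockdown and 129 kb in the double. These were different LADs rather than 1 LAD with a moving edge. The preadipocyte LAD, 72.7 kb long, was a released region, that is, one of the 2021 regions deposited as in LADs of preadipocytes and not of adipocytes. The double knockdown LAD was 24.8 kb long, was held by that list alone and covered 37.9% of the nearby gene Fancd2, a DNA repair gene. With LADs under 30 kb left out the double knockdown distance was 444 kb. With only LADs of at least 100 kb counted, the distances were 870 kb, 952 kb, 1235 kb and 930 kb in the order of the lists, so that the single knockdown was then farther than adipocytes.

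Pnpla2 and Lipe encode lipases that act in lipolysis. Pnpla2 (adipose triglyceride lipase, ENSMUSG00000025509.8, chr7:148641097-148646642, strand +) lay at nearly the same distance from an upstream LAD in 3 lists, 661 kb in preadipocytes, 663 kb in control adipocytes and 665 kb in the single knockdown. The border moved by 1.69 kb between the first 2 lists, a stretch with 7 GATC sites, and by 2.06 kb between the second and the third, with 9. In the double knockdown a LAD of 19 kb lay downstream of the gene, 292 kb away, and with LADs under 30 kb left out the distance was 616 kb. With only LADs of at least 100 kb counted, the adipocyte distance was 715.5 kb and the single knockdown was then nearer than adipocytes. Pnpla2 is near the end of chromosome 7 and had 43 protein-coding genes within 500 kb of its start site, the most of the 10.

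Lipe (hormone-sensitive lipase, ENSMUSG00000003123.9, chr7:26164546-26183729, strand -) was about as far from a LAD in preadipocytes, 498 kb, as in adipocytes, 510.1 kb. In both knockdowns a short LAD lay between that border and the gene, at 84.05 kb in the single knockdown and at 59.0 kb in the double knockdown. These LADs were 31.5 kb and 34.2 kb long and overlapped each other from position 26267776 to 26276900. The double knockdown LAD covered the whole of the nearby gene Ceacam1, a cell adhesion gene, which met no LAD in the other 3 lists. With only LADs of at least 100 kb counted, the knockdown distances were 672 kb and 523 kb, both above that in adipocytes.

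Lpl, Cd36 and Fabp4 bring fatty acids into the cell and carry them there. Lpl (lipoprotein lipase, ENSMUSG00000015568.8, chr8:71404390-71431347, strand +) had its closest LAD downstream in every list, at 434 kb in preadipocytes, 505 kb in control adipocytes, 387 kb in the single knockdown and 324 kb in the double. The preadipocyte LAD of 33.4 kb was a released region. Of that region 8.31% was in a LAD in the single knockdown and 41.6% in the double knockdown, whose nearest LAD to Lpl was a further one of 32.0 kb. Counting LADs of 100 kb or more, the 4 distances were 501 kb, 505 kb, 505 kb and 504 kb, and thus nearly equal.

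Cd36 (the fatty acid translocase CD36, ENSMUSG00000002944.8, chr5:17287508-17394777, strand -) was the one member inside a LAD. In preadipocytes its whole body of 107 kb, its start site and the window from 2000 bp before to 500 bp after that site lay in a LAD of 229 kb, chr5:17283610-17512335. In adipocytes and in the single knockdown 0% of the body lay in a LAD and the closest one began 174 kb and 175 kb upstream. Those 2 borders were 1.11 kb apart, with 5 GATC sites between them. In the double knockdown the body again met no LAD, but a LAD of 43.7 kb began 8.41 kb upstream of the start site, within the window that runs from 10 kb before it. Counting LADs of 100 kb or more, the double knockdown distance was 188 kb, above that in control adipocytes. The LAD of 43.7 kb covered 19.1% of the stretch that the preadipocyte LAD had held. Contact with a LAD in the preadipocyte list alone was seen for 1.59% of protein-coding genes.

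The preadipocyte LAD of Cd36 was identical, border for border, to a deposited released region, which met the genes Cd36 and Gnat3. Gnat3, which encodes the taste G protein gustducin, lies 73.7 kb away and was the nearest gene with the same pattern, LADs covering 76.7% of it in preadipocytes and none of it in the others. The pattern did not extend to Sema3c on the other side of Cd36. LADs covered 48.0% of this semaphorin gene in preadipocytes, none of it in control adipocytes or the single knockdown, and 31.4% in the double knockdown. Within 1 Mb of the Cd36 start site there were 4 released regions and 1 recruited region, the latter being a region in LADs of adipocytes and not of preadipocytes. None of the released regions met a LAD in the single knockdown, whereas in the double knockdown 1 was covered to 63.0%, the one around Cd36 to 19.1% and the other 2 not at all. The recruited region of 29.9 kb was in no LAD in either knockdown. In the single knockdown the surroundings of Cd36 thus matched those of adipocytes on the released side and those of preadipocytes on the recruited side.

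**Figure D2:**
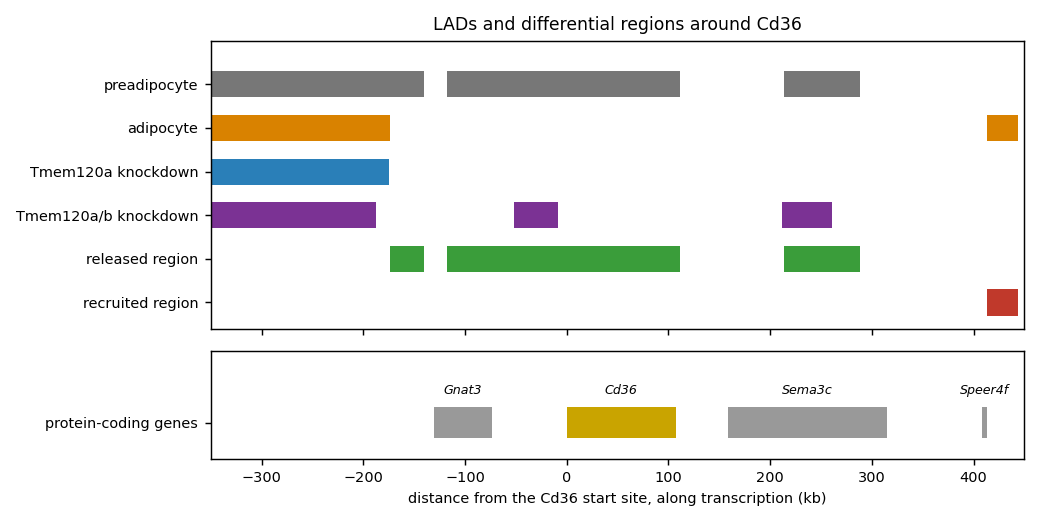
LADs in the 4 lists and deposited differential regions around Cd36, as distance in kb from its start site along the direction of transcription, with protein-coding genes below. The preadipocyte LAD of 229 kb that holds Cd36 has the same extent as a released region, and in the double knockdown a LAD of 43.7 kb begins 8.41 kb upstream of the start site.

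Fabp4 (the fatty acid carrier of fat cells, ENSMUSG00000062515.2, chr3:10204347-10208576, strand -) sat in a gap between LADs of nearly constant width. The gap was 461 kb wide in preadipocytes, 467 kb in control adipocytes, 443 kb in the single knockdown and 468 kb in the double. The closest LAD was 203 kb, 214 kb, 178 kb and 209 kb away in that order. Without LADs under 100 kb, these were 203 kb, 248 kb, 241 kb and 425 kb, so that the double knockdown was then farther than adipocytes. Around this gap more changed: LADs filled 44.9% of the 1 Mb centred on the start site in preadipocytes, 29.7% in control adipocytes, 44.9% in the single knockdown and 37.2% in the double knockdown. The largest piece of this was a released region of 146 kb beyond the 3′ end, of which 90.8% was in a LAD again in the single knockdown and 66.0% in the double knockdown. Fabp5, a second fatty acid binding gene in the same gap, was 10.8 kb, 22.6 kb, 68.6 kb and 17.1 kb from a LAD.

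Adipoq, Lep and Retn encode adipokines. Adipoq (adiponectin, ENSMUSG00000022878.5, chr16:23146609-23158101, strand +) showed the largest differences in distance of the 10 genes, in each comparison that includes the adipocyte list. Its closest LAD, upstream in each list, was 408 kb away in preadipocytes, 2039 kb in control adipocytes, 168 kb in the single knockdown and 93.7 kb in the double. The gap between LADs that held the gene was 0.916 Mb wide in preadipocytes and 5.69 Mb in adipocytes, where it held 39 protein-coding genes, against 0.706 Mb and 0.597 Mb in the knockdowns. All 4 released regions within 1 Mb of Adipoq had at least 76.4% of their length in a LAD in the double knockdown. In the Tmem120a knockdown 2 of them had 63.3% and 51.6% of their length in a LAD and the other 2 had none.

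The LADs closest to Adipoq in the knockdowns were not those of preadipocytes. They were 38.2 kb and 26.1 kb long, and the double knockdown LAD was in no other list. Counting LADs of 30 kb or more, the double knockdown distance was 193 kb, more than that of the single knockdown. Counting LADs of 100 kb or more, the distances were 587 kb in preadipocytes, 2065 kb in control adipocytes, 3219 kb in the single knockdown and 426 kb in the double. The greater remoteness in adipocytes than in preadipocytes therefore did not depend on LAD length, but the order of adipocytes and the single knockdown did. Upstream of Adipoq, with other genes in between, Hrg (histidine-rich glycoprotein) was covered to 100% by a LAD in the single knockdown and to 22.9% in the double. Fetub (fetuin-B), farther upstream, was covered to 100% in the double, with 0% for either gene elsewhere.

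**Figure D3:**
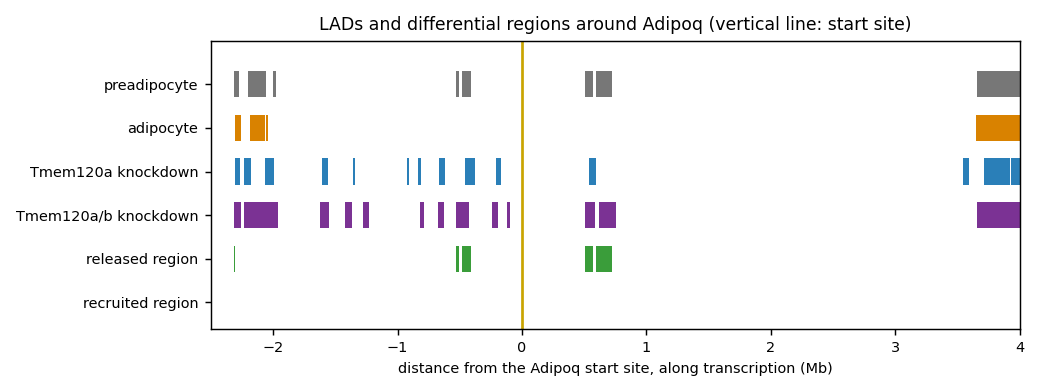
LADs in the 4 lists and deposited differential regions around Adipoq, as distance in Mb from its start site (vertical line) along the direction of transcription. The adipocyte row is empty from 2.04 Mb upstream over the whole of the 5.69 Mb gap, while the other rows hold LADs on both sides within 1 Mb.

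Lep (leptin, ENSMUSG00000059201.6, chr6:29010220-29023877, strand +) was 666 kb from a LAD in preadipocytes, 669.9 kb in control adipocytes and 611 kb in the single knockdown. In the double knockdown a LAD of 31.9 kb, in that list alone, lay 55.5 kb downstream and covered 77.0% of the neighbouring gene Rbm28, which encodes an RNA binding protein. Counting LADs of 30 kb or more, the preadipocyte distance was 723 kb and that in the single knockdown 672 kb, so that adipocytes were then the nearer of the first 2 lists. Counting LADs of 100 kb or more, Lep was 715 kb from one in the double knockdown, farther than in control adipocytes. Lep had no released region within 1 Mb and was the only member with more recruited than released regions there, 1 against 0.

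Retn (resistin, ENSMUSG00000012705.9, chr8:3655770-3660110, strand +) lay nearer to a LAD than any other member in adipocytes and in the single knockdown. The distances were 52.2 kb in preadipocytes, 67.8 kb in control adipocytes, 50.6 kb in the single knockdown and 37.6 kb in the double. All were to a downstream stretch that was in a LAD in every list, whose edge moved by 15.6 kb between preadipocytes and adipocytes, a stretch with 43 GATC sites. When LADs under 100 kb were left out, the single knockdown distance was 163 kb, above that in adipocytes, and the other 3 distances stayed as they were. LADs filled between 39.4% and 43.9% of the surrounding 1 Mb. Of its 4 released regions, 1 had at least 50% of its length in a LAD in the single knockdown and 2 in the double knockdown.

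**Figure D4:**
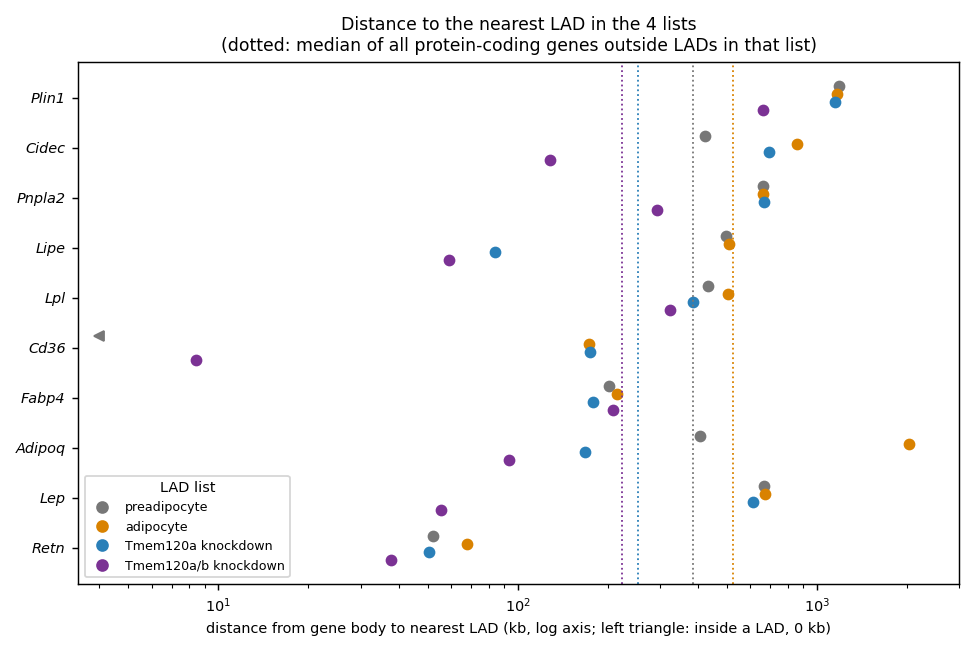
Distance in kb (log axis) from each gene body to the nearest LAD in the 4 lists, 1 point per gene and list; the left triangle marks Cd36 in preadipocytes, inside a LAD, and dotted lines are medians of all protein-coding genes outside LADs in that list. The double knockdown point is left of the adipocyte point for all 10 genes, by 5.57 kb at Fabp4 and 1945 kb at Adipoq.

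From preadipocytes to adipocytes, 9 of the 10 genes were farther from a LAD and 1, Plin1, was nearer. The background was 55.3% of all protein-coding genes farther and 23% nearer, or 70.3% farther among genes outside LADs in both lists, where 8 of 9 members were farther. Most of the members' differences were small. Only Cidec, Cd36 and Adipoq, 3 of 10, were farther by at least 100 kb, against 25.8% of all genes (for genes outside LADs in both lists, 2 of 9 members against 32.8%), and none was nearer by that much, against 5.2% (6.86%). For the others the difference was between 1.69 kb at Pnpla2 and 70.8 kb at Lpl. Among genes outside LADs in both lists the median difference was 12.1 kb for the 9 members and 23.6 kb for all genes. The share of the surrounding 1 Mb in LADs was lower in adipocytes for 7 members, against 41.4% of all genes, and higher for none, against 23.9%. The state itself was lost by 1 member, against 4.81%, and gained by 0, against 1.88%.

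From adipocytes to the single knockdown, 8 members were nearer to a LAD and Pnpla2 and Cd36, by 2.06 kb and 1.11 kb, were farther. Among genes outside LADs in both lists 75.6% were nearer, and over all genes 59.5%. Cidec, Lipe, Lpl and Adipoq, 4 of 10, were nearer by at least 100 kb, against 37.8% of all genes and 48.9% of those outside LADs in both lists, and none was farther by that much, against 2.59% and 3.51%. The members' median difference was -47.58 kb and that of all genes outside LADs in both lists was -93.13 kb. LADs filled a higher share of the surrounding 1 Mb for 5 members, against 47%, and a lower share for 1, Cd36, against 28.1%. None changed state, against 6.13% of all genes that gained and 1.95% that lost contact with a LAD. These shares are close to the background and show nothing about the 10 genes as a group.

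From adipocytes to the double knockdown, all 10 members were nearer to a LAD. The background was 64.2% of all genes and 81.6% of those outside LADs in both lists. By at least 100 kb 8 were nearer, the exceptions being Fabp4 and Retn, against 42.1% of all genes and 54.6% of those outside LADs in both lists, and 0 were farther by that much, against 1.94% and 2.43%. The median difference was -410.9 kb, against -131.8 kb. Contact with a LAD was gained by 0 members, against 8.36% of all genes, and lost by 0, against 2.1%. The share of the surrounding 1 Mb in LADs was higher for 9 members, against 52.5%, and lower for 0, against 26.3%, while Plin1 had none in either list. No test of these differences was possible, and this comparison shares the adipocyte list with the previous ones. With only LADs of at least 100 kb counted, Adipoq alone was still nearer by at least 100 kb, as given below.

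The lists themselves differ in ways that move with distance. The adipocyte list held 2542 LADs, the preadipocyte list 3914, the single knockdown list 5723 and the double knockdown list 6971. The LADs closest to the members in the double knockdown were 19 to 55.1 kb long, apart from 194 kb at Retn, whereas in adipocytes they ran from 18.15 to 2651 kb. With only LADs of at least 100 kb counted, 2 members were nearer in the single knockdown than in adipocytes and 7 were farther, against 32.8% and 48.5% of all genes. Lpl then lay 505.3 kb away in both lists. In the double knockdown 5 were then nearer and 5 farther, against 44% and 38.4%. Where Plin1, Cidec, Lipe, Adipoq, Lep and Retn turned in the single knockdown, and Plin1, Lipe, Cd36, Fabp4 and Lep in the double, their nearness thus rested on LADs shorter than 100 kb. The nearness of Lpl in the single knockdown rested on such LADs too. In the double knockdown Cidec, Pnpla2 and Lpl stayed nearer than in adipocytes, but by much less. Cidec was then at 930.4 kb against 951.6 kb in adipocytes, Pnpla2 at 615.8 kb against 715.5 kb and Lpl at 504 kb against 505.3 kb. Retn stayed nearer as before, and only Adipoq, at 426 kb against 2065 kb, was still nearer by at least 100 kb. Pnpla2 turned the other way in the single knockdown, from farther to nearer. Whether the larger number of short LADs reflects the cells or the signal of those libraries was not tested.

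The single and the double knockdown were then compared with each other. Going from the former to the latter, 9 members were nearer to a LAD, against 44.9% of all genes and 58.2% of those outside LADs in both lists, and Fabp4 was farther, against 31.8% and 41.5%. By at least 100 kb 5 were nearer, Plin1, Cidec, Pnpla2, Cd36 and Lep, against 21.1% (28.5% of genes outside LADs in both lists), and 0 were farther, against 13.3% (18.1%). No member changed state, against 4.28% of all genes that lost and 6.36% that gained contact with a LAD. For these 5 genes the single knockdown distance differed from that in adipocytes by between 1.11 kb at Cd36 and 170 kb at Cidec. The median difference over the members was -120.5 kb, against -11.23 kb for all genes outside LADs in both lists.

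**Figure D5:**
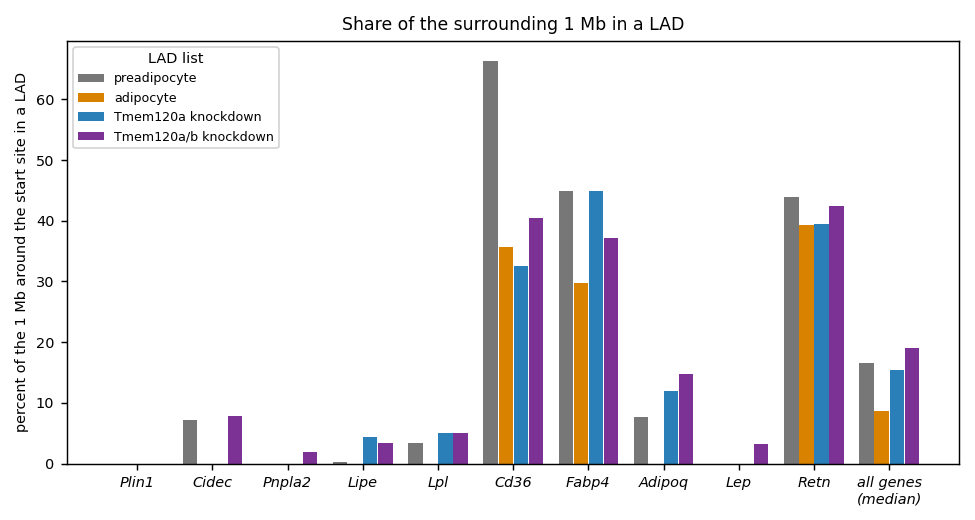
Percent of the 1 Mb centred on each start site that lies in a LAD, by gene and list, with the median of all protein-coding genes at the right. Cd36, Fabp4 and Retn stand above 29% in all lists, the other 7 genes stay under 15%, and the adipocyte bar is absent for those 7.

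The surroundings set Cd36, Fabp4 and Retn apart from the other members. LADs filled 66.3% of the 1 Mb around Cd36 in preadipocytes and 35.6%, 32.5% and 40.5% in the other lists, while Fabp4 and Retn ranged from 29.7% to 44.9%. The other 7 genes did not exceed 14.9% in any list, the highest being Adipoq in the double knockdown. The members' median was 5.30% in preadipocytes, 0% in control adipocytes, 4.73% in the single knockdown and 6.502% in the double knockdown, against 16.7%, 8.75%, 15.5% and 19.03% for all genes. There was no LAD in that window for 3, 7, 4 and 1 members, against 32.7%, 40.2%, 23.1% and 20.3% of all genes. Cd36 had 5 protein-coding genes within 500 kb and the lowest GC content there, 38.4%, and Lipe, at 49.4%, had the highest.

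Released and recruited regions were counted within 1 Mb of each start site. There were 25 released and 3 recruited regions near the members, and 8 of the 10 genes had more released than recruited ones, against 45.5% of all genes, while Plin1 had neither and Lep the reverse, against 21.8%. By the gene body, 1 member, Cd36, met a released region, against 5.76%, and none a recruited one, against 3.08%. Of the 25 released regions 8 had at least 50% of their length in a LAD in the single knockdown and 15 in the double knockdown, against 35.7% and 46.7% of all 2021. No LAD at all met 15 of them in the single knockdown and 4 in the double knockdown, against 44.9% and 34.8% of all 2021. Of the 3 recruited regions, 2 were at least 50% in a LAD in the single knockdown and 1 in the double knockdown, against 53.7% and 43.9% of all 1808. At Cidec, Lipe and Cd36 none of the released regions was in a LAD of the single knockdown, whereas at Pnpla2 they were by 100% and 52.5% of their length.

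Other genes of the same pathways were mostly outside LADs too. Of 68 such genes, 55 met a LAD in no list, against 63.7% of all genes, 8 did in all 4, against 19.3%, and 5 differed between lists, against 16.9%. Among 18 genes for droplets and lipolysis 17 met none and 1 differed. Among 26 for uptake and binding of fatty acids and lipoproteins 23 met none, 2 met a LAD in all lists and 1 differed. Among 24 adipokines, relatives and receptors 15 met none, 6 met a LAD in all lists and 3 differed. The number that met a LAD was 12 in preadipocytes, 9 in adipocytes, 11 in the single knockdown and 9 in the double knockdown. Over the 68 genes the share was between 13.2% and 17.6% and lower than that of all genes in each list, but the groups differed. It was between 0% and 5.56% for droplets and lipolysis and between 7.69% and 11.5% for uptake and binding. For adipokines, relatives and receptors it was 37.5%, 29.2%, 33.3% and 29.2% in the order of the lists, above that of all genes in the first 3 and close to it in the double knockdown. This group is small, and its genes Retnlb, Retnla and Retnlg are neighbours on chromosome 16, between positions 48816969 and 48874611. They count as separate genes here but form a single locus, and whether the excess holds without them was not tested.

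Of the 5 genes that differed, Pde3b, the phosphodiesterase through which insulin restrains lipolysis, had the pattern of Cd36: a preadipocyte LAD covered 60.0% of it, start site included, and the other lists covered none. C1qtnf2, a relative of adiponectin, had 39.7% in preadipocytes and 0% elsewhere. Rbp4, which carries retinol in blood, lay entirely within LADs of preadipocytes and of both knockdowns and 375 kb from one in control adipocytes, a pattern held by 1.44% of all genes. Fabp1, the liver fatty acid binding protein, was in a LAD in the single knockdown alone, and Retnlb, a relative of resistin, was in a LAD in each list but that of the double knockdown.

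The 8 genes in LADs in all lists were Fabp7, Slc27a6, Retnla, Retnlg, Itln1, Cdh13, Lepr and C1qtnf7. Some are relatives or receptors of the members: the resistin-like genes Retnla and Retnlg, on chromosome 16, had 100% of their bodies in a LAD in each list while Retn, on chromosome 8, was in none. Lepr, the leptin receptor gene, was covered to between 57.0% and 100%, while Lep met none. Cdh13, whose product T-cadherin binds adiponectin, had between 2.74% and 52.7%. The perilipin genes Plin2, Plin3, Plin4 and Plin5 met no LAD in any list, as did Plin1.

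The placement of the borders was examined at the members as well. All 41 borders that faced a member, or bounded the LAD around Cd36, fell within 4 bp of a GATC site of mm9, as did between 97.3% and 99.1% of all borders of the 4 lists. The median spacing of GATC sites in the surrounding 1 Mb was between 234 and 284 bp for the members, with a median of 270 bp, and 271 bp for all genes. The bodies held between 4 sites, in Fabp4, and 255 sites, in Cd36. The border shifts of 1.11 kb to 2.06 kb at Cd36 and Pnpla2 spanned 5 to 9 sites and those of 4.21 kb at Lep and 12.1 kb at Lipe from preadipocytes to adipocytes 13 and 31, and with 1 measurement of each condition such shifts cannot be set against the error of a border.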

How the data were processed

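The authors mapped the reads to mm9 (BWA and limma are among the tools in the submitters' processing notes), computed log2(LaminB1-Dam/Dam) per DpnI fragment, and segmented the genome into LADs with DNAcopy. The deposited files used here, 4 LAD lists and 2 lists of differential regions, hold start and end positions only and were matched to conditions by their abbreviations. All 2021 released regions lay wholly in preadipocyte LADs and outside adipocyte LADs, and all 1808 recruited regions the converse. The depth of the libraries is unknown.

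Genes were placed with GENCODE vM1 on NCBIM37 (mm9), on 21 chromosomes. Overlaps, distances and shares were computed by bp with Python 3.11.15 and numpy 2.4.6 and plotted with matplotlib 3.10.9. The interval code was tested on simulated data and equalled a base-by-base count in 400 of 400 sets. No test was run, since each condition has 1 library of each kind. A count of members is set beside the same share of all 22367 protein-coding genes.

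All 10 members are named. Of the 68 other pathway genes, those in LADs in all lists or in a state that differed are named, as is the nearest gene with the pattern of Cd36. Fancd2, Sema3c, Ceacam1, Hrg, Fetub, Rbm28, Fabp5 and Plin2, Plin3, Plin4 and Plin5 were named after their values were seen. The members and lists were chosen with earlier results of these data known. Alternatives covered the minimum LAD length, closing of gaps, overlap of at least 50%, promoter and window size and the point distances are measured from.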

Additional observations from a re-analysis of the deposited data

How the results depend on the processing

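Of 326 recomputed values, 254 kept their direction, where they had one, and stayed within 1.5 times the value given above. That factor is a chosen limit on values from the same lists and says nothing of the spread between replicates. Counts that stayed at 0 are among the 254. Of the rest, 32 were counts or medians that moved further, 23 were differences of single genes that did so, and 17 were differences of single genes that turned. Closing gaps under 50 kb left the distance of each member as it was. That outcome was fixed in advance, since each gap that held a member was wider, the narrowest being 220.5 kb at Cd36 in the double knockdown. No paired analysis was possible because each condition has 1 library of each kind, and for the same reason none could be left out. The comparisons of distance by direction and size were added after the data had been seen.

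With LADs of at least 100 kb the members' median distance was 668.5 kb in the single and 513.5 kb in the double knockdown, their median share of the 1 Mb window was 0% in preadipocytes and both knockdowns, and 7 of the 68 pathway genes met a LAD in the single knockdown, where 20.1% of all genes did so (11 and 27.5% with all LADs). Against preadipocytes 2 members were then nearer in adipocytes (28.8% of all genes), with Lep at -194.7 kb. Against adipocytes 7 were farther (48.5%) and 2 nearer (32.8%) in the single knockdown, where Plin1 turned to 109.7, Cidec to 282.9, Pnpla2 to -50.69, Lipe to 162.1, Adipoq to 1153, Lep to 154.2 and Retn to 94.96 kb. In the double knockdown 5 were farther (38.4%) and 5 nearer (44%), and Plin1 turned to 26.39, Lipe to 12.9, Cd36 to 13.93, Fabp4 to 176.8 and Lep to 45.38 kb. Against the single knockdown 2 were farther in the double (34.7%), with Cd36 at 12.82 kb. With LADs of at least 30 kb the double knockdown medians were 201 kb and 4.303%, 2 members were nearer in adipocytes than in preadipocytes (23.6%) and 2 farther in the double than in the single knockdown (31.6%). Lep turned to -52.84 kb from preadipocytes to adipocytes and to 1.595 kb in the single knockdown, and Adipoq to 24.91 kb from single to double. Leaving out the shorter LADs is all that these settings change.

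Counting only differences of at least 100 kb left 3 members farther and 0 nearer in adipocytes, 0 farther and 4 nearer in the single knockdown, and 0 farther and 5 nearer from single to double. The median share fell to 0% in preadipocytes and both knockdowns with 50 kb on each side, and was 0% in preadipocytes and 3.146% in the single knockdown with 250 kb. With 1 Mb on each side it was 16.28%, 14.32%, 17.2% and 23.27% in the order of the lists. With the promoter taken from 10 kb before to 15 kb after the start site, 1 member, Cd36, met a LAD in the double knockdown, against 28.1% of all genes.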

Other observations

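Some genes within 500 kb of the members' start sites met a LAD in some lists and not in others. Near Fabp4, Pag1, an adaptor of Src family kinases, was covered by LADs to 23.8% in preadipocytes, 0% in adipocytes, 53.9% in the single and 37.2% in the double knockdown. Near Retn, the lectin gene Clec4g had 61.6%, 0%, 72.9% and 100% in that order. Cd209g, 479 kb from the Retn start site, had 100%, 0%, 100% and 0%. Near Cidec, the calcium pump gene Atp2b2 had 35.4%, 0%, 0% and 18.3%, and near Pnpla2 the kinase gene Brsk2 had 39.1% in the double knockdown and 0% elsewhere. These neighbours were named after their values were seen.

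Within 1 Mb of the start sites of the members there were 31 LADs in preadipocytes, 19 in adipocytes, 41 in the single and 54 in the double knockdown. LADs that overlapped none in the other 3 lists numbered 3, 3, 6 and 9. That is 9.68%, 15.8%, 14.6% and 16.7% of those near the members, against 10.4%, 5.74%, 12.9% and 16% of each whole list. In the double knockdown these 9 had a median length of 24.8 kb, and they lay near Plin1, Cidec, Pnpla2, Lpl, Adipoq, Lep and Retn. They include the closest LAD of the double knockdown to Plin1, Cidec, Pnpla2, Lpl, Adipoq and Lep.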
